A study of Mus musculus with 12 samples.

Results

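Carbonic anhydrases are zinc enzymes that interconvert carbon dioxide and bicarbonate, with the release or uptake of a proton. The genes described here are Car2, Car3, Car4, Car5b, Car6, Car8, Car9, Car12, Car13 and Car14, which are 10 of the 27962 gene names on the array and are read by 14 of its 41174 probes. All probes that carry one of these names were taken. The set was selected on the measured change of Car6, which was among the largest rises in Schmid and was also a rise in Cog, so the Car6 values of these contrasts are given as a description, with no test. The other 9 genes were tested in the fit over all probes.

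The arrays profiled hypertrophic zones, the layer of the growth plate in which chondrocytes enlarge before bone replaces the cartilage. Each sample was dissected from a tibia at an age of 14 days, and 4 groups of 3 mice were measured with 1 single-colour array per mouse. Schmid mice were homozygous for Col10a1 p.Asn617Lys, a collagen X mutation knocked in to the endogenous gene, and their controls were wildtype littermates of the Schmid background. Cog mice (ColXTgcog) carried a transgene for a misfolding thyroglobulin under the Col10a1 promoter, which confines it to hypertrophic chondrocytes, and their controls were wildtype littermates of the Cog background. The Cog group may mix hemizygous and homozygous animals. All RNA was amplified in 2 linear rounds before labelling. Mutants were set against the wildtype littermates of their background, so the mutant comparisons share no array.

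Family members differ in where they work. Car6 is the secreted enzyme of saliva, and a form without the signal peptide, made from a promoter inside the gene, is known to be induced through the stress transcription factor Chop. Car9, Car12 and Car14 span the plasma membrane with the active site outside the cell, and Car4 is held there by a lipid anchor. Car2, Car3 and Car13 are cytosolic, Car5b is mitochondrial, and Car8 has lost the catalytic activity. In bone, Car2 supplies the protons with which osteoclasts dissolve mineral, and it is also abundant in red cells. Car3 is a main protein of skeletal muscle and fat cells, and Car9 is a classic target of the hypoxia-inducible factor.

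The Car6 promoter is shown because Car6 carries the largest difference of the family, and the Car9 promoter because Car9 passed the test in Schmid. Both are RefSeq windows on GRCm38.p6, from 250 bases before to 50 bases after the annotated start, written 5′ to 3′ on the gene's strand. Capitals mark matches to the hypoxia core, searched as ACGTG or GCGTG on both strands. The Car6 window is chr4:150201086-150201385 on the minus strand, and the Car9 window is chr4:43506776-43507075 on the plus strand.
Car6: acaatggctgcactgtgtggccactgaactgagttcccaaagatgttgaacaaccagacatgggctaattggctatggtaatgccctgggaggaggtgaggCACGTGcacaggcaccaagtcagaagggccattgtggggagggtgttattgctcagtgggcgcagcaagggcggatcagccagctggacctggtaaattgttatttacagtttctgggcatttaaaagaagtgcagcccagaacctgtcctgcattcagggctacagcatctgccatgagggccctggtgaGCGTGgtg
Car9: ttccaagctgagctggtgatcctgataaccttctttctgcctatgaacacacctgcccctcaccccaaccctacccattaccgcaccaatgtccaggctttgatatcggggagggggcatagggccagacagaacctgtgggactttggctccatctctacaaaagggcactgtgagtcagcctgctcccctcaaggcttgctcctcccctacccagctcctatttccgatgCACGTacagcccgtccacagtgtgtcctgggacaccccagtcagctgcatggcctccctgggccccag
Car6 held 3 matches, of which 2 overlap as the palindrome CACGTG at base -149, and Car9 held 1, at base -18. Of the 32851 promoters in the table, 43.8% hold this motif at least once. Windows were given for 6 of the 10 genes, with 5 matches in Car5b, 1 each in Car4 and Car14, and 0 in Car12. The C/EBP-ATF composite TGATGNAA, present in 3.97% of all promoters, and TGCAAT, a site of C/EBP and Chop dimers present in 8.40%, had 0 matches in all 6 windows on either strand. The window of the internal Car6 promoter was not analysed here, and the array gives no reading of which promoter was used.

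Signals are on the log2 scale after normexp background correction and quantile normalization, and a level of one probe is never set against that of another. The threshold for a call was 0.05 on the limma p-value after Benjamini-Hochberg adjustment over all probes, together with a 2-fold difference in either direction. A fold change below wildtype is written as a negative number. For a gene with several probes, the brightest on average was taken as its main probe. A probe was counted as detected on an array where the scanner software marked it as well above background. By this mark 4 of the 14 probes were detected on no array, namely the probe of Car4 and the dimmer probes of Car5b, Car8 and Car12, and no fold change is given for them.

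Several features of the arrays touch the dimmer members. The median of the negative control spots was between 202 and 617 in Schmid and between 977 and 1894 on the other 9 arrays, and 58.9 to 61.8% of spots were detected on the Schmid arrays against 39.6 to 59.4% on the others. The 3 Schmid arrays lay on 1 slide, their wildtype replicates 1 and 2 on another, wildtype replicate 3 with the 3 Cog arrays on the next, and the 3 Cog-background wildtype arrays on the last. A mutant never shared a slide with its control group, and slide and genotype cannot be told apart. All 6 chondrocyte markers and all 5 markers of hypertrophic chondrocytes, Col10a1 among them, were detected on all 12 arrays. The same held for all 5 osteoblast markers, so detection alone does not check the tissue label. The summed signal of the hypertrophic markers was 213000 to 237000 in Schmid and 552000 to 656000 in its wildtype, with Ihh, Akp2 and Pthr1 called lower. It was 519000 to 626000 in Cog and 560000 to 631000 in its wildtype, with Ihh called lower (log2 change -1.37, SE 0.31, limma, adjusted p = 0.036). Col10a1 and Mmp13 were called in neither mutant. The log2 change of Col10a1 was -0.02 in Schmid and 1 in Cog (SE 0.62 for each). That of Mmp13 was -1.26 in Schmid and -0.49 in Cog (SE 1 for each). The lower sum in Schmid therefore does not describe Col10a1, which was level there.

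Car6 (NM_009802) was the member with the largest difference in both mutants. Its single probe lies at chr4:149176720-149176779 on the minus strand in the array's own annotation (mm7), and it was detected on all 12 arrays. In Schmid the log2 signals were 16.81, 16.60 and 16.56, and in the Schmid-background wildtype 10.84, 10.63 and 10.83. The lowest Schmid array thus stood far above every wildtype array, and the 3 arrays within each group lay close together (16.66 ± 0.13 and 10.77 ± 0.12, SD, n = 3). In Cog the signals were 13.99, 14.21 and 13.47, and in the Cog-background wildtype 10.80, 11.54 and 11.34. Here too the groups did not overlap, at a lower level and with a wider spread than in Schmid (13.89 ± 0.38 and 11.23 ± 0.38, SD, n = 3). One group lay beyond the other for 45.3% of all probes in the Schmid comparison and for 29.4% in the Cog comparison.

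**Figure D1:**
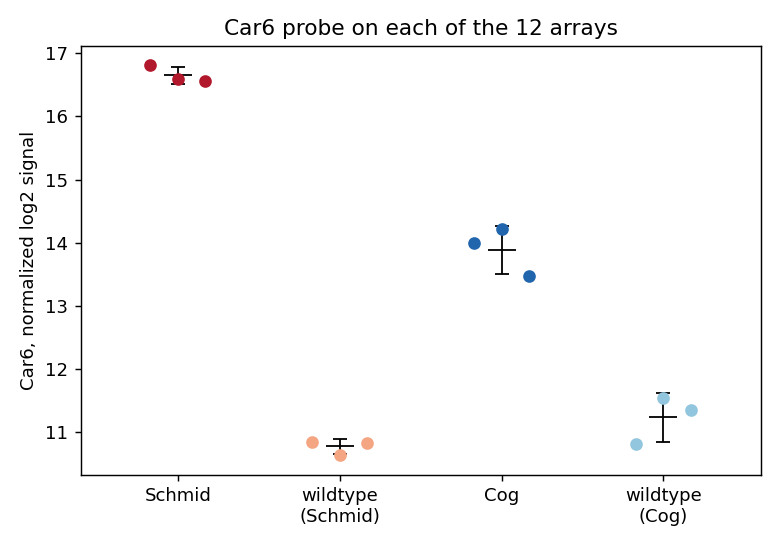
Normalized log2 signal of the Car6 probe (y axis) on each of the 12 arrays, by group, with 1 point per mouse, the group mean as a bar and the SD as whiskers. The Schmid arrays sit between 16.56 and 16.81, the Cog arrays between 13.47 and 14.21, and all 6 wildtype arrays between 10.63 and 11.54.

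The log2 change of Car6 was 5.89 in Schmid (SE 0.22), a fold change of 59.3, and 2.66 in Cog (SE 0.22), a fold change of 6.34. Ordered by log2 change, Car6 was at place 3 of 41174 probes in Schmid and at place 41 in Cog, or place 2 and place 39 when each gene is counted once. The change in Schmid exceeded that in Cog by 3.22 on the log2 scale (SE 0.31). The wildtype groups differed by -0.46 (Schmid background minus Cog background, SE 0.22), with overlapping values. On the slide that held all Cog arrays together with 1 wildtype array, of the Schmid background, that wildtype array read 10.83 and the Cog arrays read 13.47 and above. The order of the groups, Schmid above Cog above both wildtypes, is that of every single array, and the wildtype groups could not be ranked beyond their spread.

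The genes whose pattern over the 12 arrays lay nearest to that of Car6 were sought among 17901 genes, by the Euclidean distance between log2 values taken relative to the own wildtype. Ddit3, which encodes Chop, was the nearest (distance 3.08). Its log2 change was 4.49 in Schmid and 3.66 in Cog. It was followed by Cdsn, which encodes corneodesmosin of the skin barrier (3.25, with changes of 4.95 and 1.11), and Acox2, a peroxisomal oxidase of bile acid side chains (3.60, with 4.35 and 1.43). Pdia4, a protein disulphide isomerase of the endoplasmic reticulum, came next (3.91, with 4.0 and 3.03), then D5Ertd593e (3.96, with 3.80 and 2.19). None of these 5 genes reached the change of Car6 in Schmid. The search used the Car6 changes by which the family was chosen. Its nearest genes are therefore a description and no test of a link to Chop.

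The list of Chop and its partners had 4 genes on the array. Ppp1r15a, also listed, was not found under that symbol and is not covered here. Ddit3, Cebpb, a C/EBP factor with which Chop pairs, and Trib3, a pseudokinase induced through Chop, were called higher in both mutants. Of all probes, 5.78% were called higher in Schmid and 1.56% in Cog. Trib3 changed by 2.97 in Schmid (SE 0.15, limma, adjusted p = 7.9e-06) and 2.48 in Cog (SE 0.15, adjusted p = 6e-05), and Cebpb by 1.59 (SE 0.19, adjusted p = 0.00054) and 1.53 (SE 0.19, adjusted p = 0.0043). With the mean of all probes of a gene, 1 of these 3 was called in Cog. In Schmid 2 to 3 were called over the 22 alternative settings. Atf4 was not called in either, with log2 changes of -0.19 and -0.15. The median over the 4 genes was 2.28 in Schmid and 2.01 in Cog, beside -0.06 and 0.00 over all probes. None of the 4 differed between the mutants past the threshold, and Ddit3 came nearest (log2 difference 0.84, SE 0.33, limma, adjusted p = 0.11).

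Of the 9 tested members, Car9 was called higher and Car3 lower in Schmid, where 10.5% of all probes were called, 5.78% higher and 4.69% lower. In Cog 0 of the 9 were called, where 2.31% of all probes were, 1.56% higher and 0.748% lower. For the difference between the mutants, Car9 was called higher and Car3 lower, in a contrast where 10.3% of all probes were called, 4.38% higher and 5.88% lower. Between the wildtype groups 0 of the 9 were called, where 0.469% of all probes were, and Car9 and Car14 differed at an unadjusted p under 0.05, as did 14.1% of all probes. At an unadjusted p under 0.05, the members that differed in Schmid were Car2, Car3, Car9 and Car13, or 4 of 9, beside 39.3% of all probes, and in Cog Car5b and Car9, or 2 of 9, beside 21.3%. Both counts are near the share of all probes. The median log2 change of the 9 genes was 0.13 in Schmid and -0.47 in Cog, with Car4 and, in Cog, Car8 counted at their values near background. With counts this small, the share of members called cannot be read as higher or lower than that of all probes. The same shares of all probes stand beside the counts of the gene and marker lists below.

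**Figure D2:**
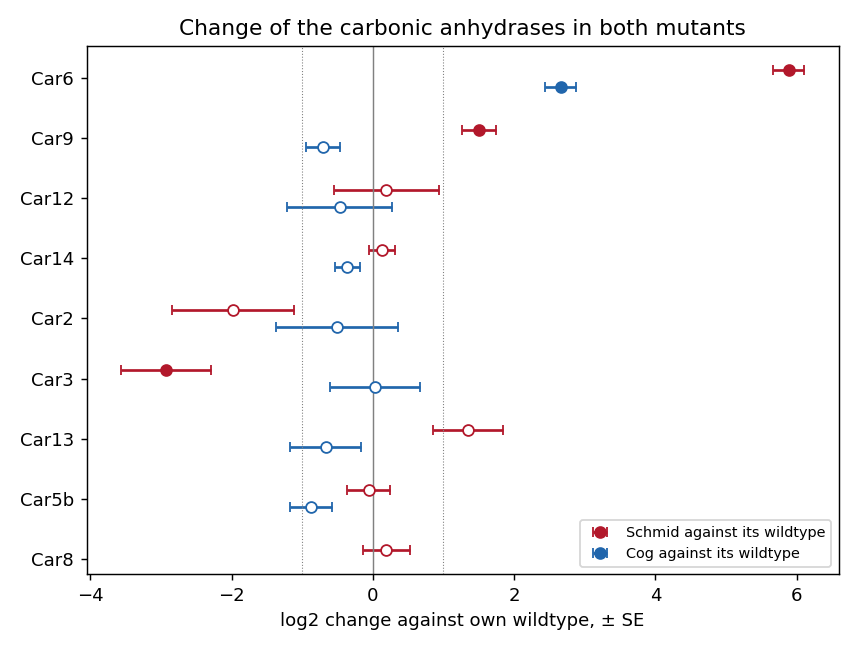
Log2 change against the own wildtype (x axis) with its standard error for 9 of the 10 genes (y axis), in Schmid (red) and Cog (blue), where a filled point marks a call or, for Car6, a value that was not tested, and dotted lines mark a 2-fold change. Car9 lies at 1.50 in Schmid and -0.71 in Cog, and Car3 at -2.93 and 0.03. Car4, and Car8 in Cog, are left out because their probes were detected on no array of the groups compared.

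Car9 (NM_139305), the membrane enzyme of hypoxic cells, was called higher in Schmid and not in Cog. Its log2 signals were 11.15, 11.28 and 10.90 in Schmid and 9.81, 9.38 and 9.65 in the Schmid-background wildtype, of which the second was not well above background. All 3 Schmid arrays stood above the wildtype arrays, as one group lay beyond the other for 45.3% of all probes in this comparison. The log2 change was 1.50 (SE 0.24), which is 2.82-fold (limma, adjusted p = 0.0022). The Cog signals were 9.27, 10.29 and 9.5, with only the second detected, and in the Cog-background wildtype 10.21, 10.59 and 10.38. These groups overlapped, and the log2 change was -0.71 (SE 0.24, 95% interval -1.24 to -0.17, limma, adjusted p = 0.13). Without Cog replicate 2 it was -1.01 and was called (adjusted p = 0.027).

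The change of Car9 differed between the mutants by 2.20 on the log2 scale (SE 0.34, limma, adjusted p = 0.0028). The wildtype groups differed by -0.78 (SE 0.24, limma, adjusted p = 0.17), and their 3 and 3 values did not overlap, which was so for 18.2% of all probes. Car9 was therefore lowest in the wildtype of one background and the mutant of the other. The arrays with the highest Car9 were also those with the lowest signal of negative control spots, and the part of this in the result was not tested. The genes with the nearest pattern were Cyp2r1, a vitamin D 25-hydroxylase (distance 0.833, log2 changes of 1.76 and -0.78), 1110034A24Rik (0.848, with 1.39 and -0.43), Olfr933, an olfactory receptor (0.859, with 1.12 and -0.84), Htatip2 (0.909, with 1.29 and -0.63) and Acsm3, a mitochondrial acyl-CoA synthetase (0.929, with 1.55 and -0.82).

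The hypoxia list held 15 genes, all on the array. In Schmid 6 were called higher and 0 lower, where 5.78% of all probes were called higher and 4.69% lower. The median log2 change was 0.94, beside -0.06 over all probes. The largest was Ndrg1, a stress-response gene induced by hypoxia, at 3.14 (SE 0.21, limma, adjusted p = 4e-05). Egln3 and Egln1, the oxygen sensors that mark the hypoxia-inducible factor for degradation, changed by 2.12 (SE 0.15, adjusted p = 4.5e-05) and 1.53 (SE 0.38, adjusted p = 0.016). Hk2, the first enzyme of glycolysis, changed by 1.67 (SE 0.34, adjusted p = 0.0068). Bnip3 and Ankrd37 were the remaining calls, at 1.50 and 2.25. In the Schmid-background wildtype, Egln3 and Egln1 were each detected on 1 of 3 arrays and Ankrd37 on 2. The changes of these genes thus rest on wildtype values near background. Vegfa and Adm, equally well-known targets, were at -0.21 and -0.10 and were not called.

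In Cog, Ndrg1 alone of the hypoxia list was called (log2 change 1.04, SE 0.21, limma, adjusted p = 0.023), where 1.56% of all probes were called higher. The median was -0.11, beside 0 over all probes. The call of Ndrg1 in Cog was lost under 10 of 22 alternative settings. The difference between the mutants was called for Ndrg1, Slc2a1, a glucose transporter, and Pgk1, a glycolytic enzyme, all further up in Schmid. Egln3 also passed this threshold, but it was detected on no Cog or Cog-background array, so no difference is given for it. Of the 15 changes, 13 were positive and 2 negative in Schmid, and 3 were positive and 12 negative in Cog. Egln3 and Eno1 were counted in Cog at their values near background. Car9, which is not on the list, was likewise called higher in Schmid.

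**Figure D3:**
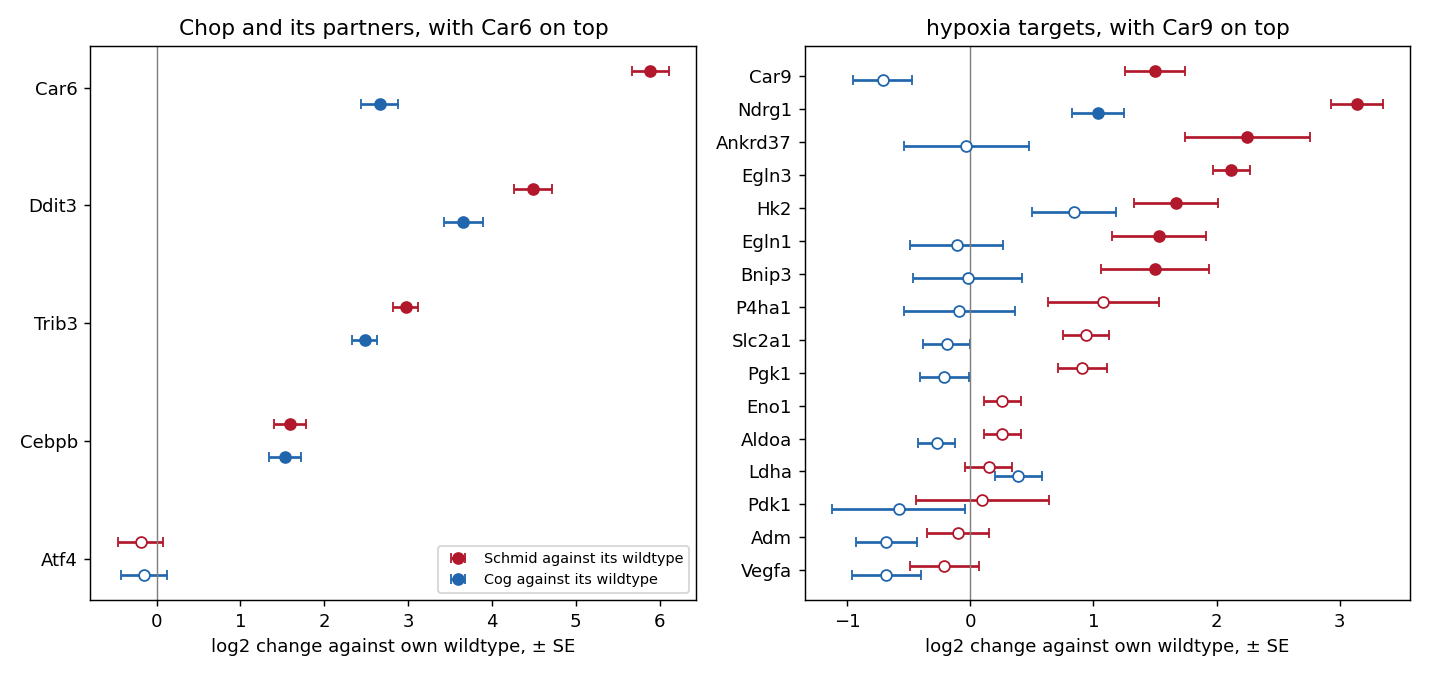
Log2 change against the own wildtype (x axis) with its standard error for the Chop list with Car6 (left) and the hypoxia list with Car9 (right), in Schmid (red) and Cog (blue), where a filled point marks a call or, for Car6, a value that was not tested. In the left panel 3 of the 4 listed genes are high in both mutants, and in the right panel 6 of 15 are called in Schmid and 1 in Cog. Egln3 and Eno1 have no Cog point because they were detected on no array of either Cog group.

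Car12 and Car14, the other membrane enzymes, were called in neither mutant. Car12 (NM_178396) was even in Schmid, where the 3 arrays lay between 10.99 and 11.02, but ranged widely in the Schmid-background wildtype, at 12.97, 9.08 and 10.39. The wildtype arrays enclosed the Schmid arrays, and the log2 change of 0.19 had a 95% interval of -1.45 to 1.83 (SE 0.74, limma, adjusted p = 0.87). Without wildtype replicate 1 the change was 1.27 and was called (adjusted p = 0.025), and without wildtype replicate 2 it was -0.67. In Cog the signals were 10.83, 10.75 and 11.15 and in its wildtype 11.87, 11.24 and 11.01, with a log2 change of -0.47 (SE 0.74, adjusted p = 0.76). A second Car12 probe was detected on no array.

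Car14 (NM_011797) varied little. It lay between 10.54 and 10.66 in Schmid, 10.27 and 10.87 in the Schmid-background wildtype, 10.46 and 10.83 in Cog and 10.90 and 11.22 in the Cog-background wildtype. The log2 change was 0.13 in Schmid (SE 0.18, 95% interval -0.26 to 0.52, limma, adjusted p = 0.61) and -0.36 in Cog (SE 0.18, 95% interval -0.75 to 0.03, adjusted p = 0.27). The Cog arrays lay below all wildtype arrays of their background, as the arrays of one group lay beyond those of the other for 29.4% of all probes in this comparison. Either interval leaves out a 2-fold change. Car4, which lies on the same side of the membrane, read 8.44 to 8.83 over the 12 arrays and was detected on none.

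Car3 (NM_007606) was the member with the strongest fall. The Schmid signals were 10.65, 11.69 and 11.47 and those of the Schmid-background wildtype 14.79, 14.38 and 13.44. Every Schmid array thus lay below every wildtype array, as one group lay beyond the other for 45.3% of all probes. The log2 change was -2.93 (SE 0.64), or a fold change of -7.64, and was called (limma, adjusted p = 0.0097). The Cog signals were 12.70, 12.17 and 13.97 and those of its wildtype 14.32, 12.16 and 12.27, which overlap throughout. The log2 change in Cog was 0.03 with a 95% interval of -1.40 to 1.46 (SE 0.64, limma, adjusted p = 0.98).

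The change of Car3 differed between the mutants by -2.96 (SE 0.91, limma, adjusted p = 0.050), at the very edge of the threshold, and it was past it in 11 of 27 alternative settings. The wildtype of the Schmid background was higher than that of the Cog background by 1.29, with overlapping values (SE 0.64, limma, adjusted p = 0.41). Car3 had a second probe (AK075630), which lies 5′ of the main one on chromosome 3 and was detected on 8 of the 12 arrays. It read 9.49, 9.53 and 9.56 in Schmid and 10.03, 9.10 and 9.26 in its wildtype, with a log2 change of 0.06 (SE 0.39, limma, adjusted p = 0.92), so the probes of Car3 disagree. When they were averaged, the change in Schmid was -1.44 and was not called (adjusted p = 0.052). The accession of the second probe was not found in the RefSeq table, and which transcripts it reads was not tested.

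Nearest to Car3 in pattern were St8sia4, a polysialyltransferase (distance 1.72, log2 changes of -2.93 and -0.16), Serpinf1, a secreted inhibitor of vessel growth (1.80, with -2.57 and -0.68), Birc5, a protein of dividing cells (1.82, with -2.54 and -0.08), Cxcl12, a chemokine of stromal cells (2.01, with -2.50 and 0.47), and Cthrc1, a secreted protein of matrix-forming cells (2.02, with -2.54 and -0.54). All 5 were lower in Schmid by at least 2.50 on the log2 scale and within 0.68 of their wildtype in Cog. This likeness follows from their selection by distance to Car3.

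Car2 (NM_009801) was lower on average in Schmid, without a call. It read 11.51, 10.38 and 10.09 in Schmid and 14.96, 11.87 and 11.08 in the Schmid-background wildtype. The highest Schmid array exceeded the lowest wildtype array, and wildtype replicate 1 stood far above the others. The log2 change was -1.98 (SE 0.86, limma, adjusted p = 0.12), and without that wildtype array -0.81. Car2 was called in Schmid under 3 of 22 alternative settings. They were the replicate number as a block within each background (limma, adjusted p = 0.039) or over all arrays (adjusted p = 0.034), and normexp values at a common 75th percentile (adjusted p = 0.048). In Cog the signals were 11.53, 11.10 and 11.24 and in its wildtype 12.83, 11.42 and 11.14, with a log2 change of -0.51 (SE 0.86, adjusted p = 0.78).

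The summed signals of red cell, osteoclast, adipocyte, endothelial, osteoblast, chondrocyte and hypertrophic markers were all lower in Schmid than in its wildtype, without overlap. The skeletal muscle sums of these groups overlapped. In bulk tissue, fewer cells of a type and less RNA per cell cannot be told apart. Of 6 red cell markers, 3 were called lower in Schmid, both globins among them, with Hbb-b1 at -4.07 (SE 0.61, limma, adjusted p = 0.0015), and 0 in Cog. The summed red cell signal was 25300 to 68600 in Schmid and 252000 to 983000 in its wildtype, against 99000 to 291000 in Cog and 149000 to 306000 in its wildtype. Of 8 osteoclast markers, only the protease Mmp9, which hypertrophic cartilage also expresses, was called lower in Schmid, at -2.81, and only Tcirg1, a proton pump subunit, in Cog, at -1.08. The osteoclast sums were 15400 to 21200 in Schmid and 40900 to 97600 in its wildtype, and 26100 to 64300 in Cog and 48500 to 116000 in its wildtype. Atp6v0d2, a defining osteoclast gene, was detected on no array. Of 6 endothelial markers 3 were called lower in Schmid and 0 in Cog, and of 5 osteoblast markers 1 was called lower in each mutant.

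The adipocyte list had 0 of 6 genes called in either mutant. Its summed signal was 3790 to 8210 in Schmid and 11700 to 14200 in its wildtype, with no overlap, and 11900 to 34600 in Cog and 12100 to 48500 in its wildtype. Of its defining genes, Lep was detected on no array, and Adipoq on 1 array, of the Schmid-background wildtype. The array with the highest Car3 in Cog, replicate 3, also had the highest adipocyte sum of its group, as did replicate 1 of both wildtype groups and replicate 2 of Schmid. The osteoclast and endothelial sums also peaked on these arrays in Cog and both wildtype groups, but not in Schmid. The osteoblast sum did so in Schmid and both wildtype groups, but not in Cog. The muscle sum did so in Schmid alone. The skeletal muscle list had 0 of 8 genes called in either mutant, with all 8 log2 changes negative in both. Its sum was 81600 to 259000 in Schmid and 237000 to 345000 in its wildtype, and 85100 to 106000 in Cog and 143000 to 456000 in its wildtype. The part of these cell types in the values of Car2 and Car3 was not tested.

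**Figure D4:**
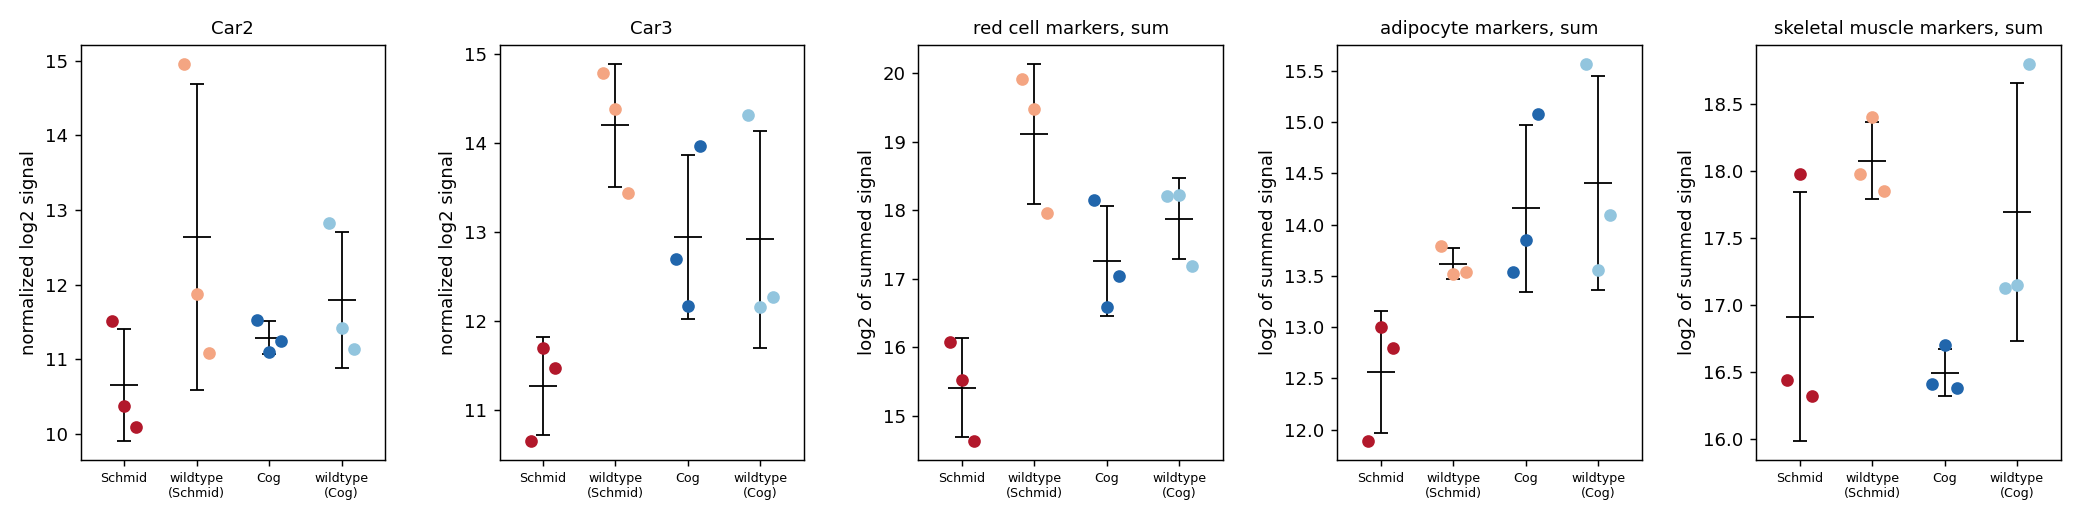
Log2 signal of Car2 and of Car3 (first 2 panels) and log2 of the summed signal of the red cell, adipocyte and skeletal muscle markers (other 3 panels) on each of the 12 arrays, by group, with the mean as a bar and the SD as whiskers. Car3 and the red cell and adipocyte sums have no overlap between Schmid and its wildtype, while Car2 and the muscle sum do overlap.

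Car13 (NM_024495), the other cytosolic enzyme, was higher in Schmid without reaching the threshold. It read 12.13, 11.04 and 11.33 in Schmid and 10.66, 9.04 and 10.74 in its wildtype, of which the second was not well above background. All Schmid arrays lay above the wildtype arrays, as the arrays of one group lay beyond those of the other for 45.3% of all probes. The log2 change was 1.35 (SE 0.50, limma, adjusted p = 0.071). The fit with the replicate number as a block within each background called it (adjusted p = 0.021), and so did 4 other settings, among them removal of a trend over the rows of the array (log2 change 1.61, adjusted p = 0.048). In Cog it read 9.97, 10.44 and 9.09, with only the second detected, and in the wildtype 10.60, 10.82 and 10.10, a log2 change of -0.67 (SE 0.50, adjusted p = 0.47). Between the mutants the change differed by 2.03 (SE 0.70, limma, adjusted p = 0.074).

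Car5b (NM_181315), the mitochondrial enzyme, was level in Schmid, at 11.17, 11.28 and 11.49 against 10.63, 11.62 and 11.88 in wildtype (log2 change -0.06, SE 0.30, 95% interval -0.72 to 0.60, limma, adjusted p = 0.90). In Cog it read 9.83, 10.52 and 10.39, with the first not detected, and in its wildtype 10.90, 11.21 and 11.27. All Cog arrays lay below the wildtype arrays, as one group lay beyond the other for 29.4% of all probes in this comparison. The log2 change was -0.88 (SE 0.30, 95% interval -1.54 to -0.22, limma, adjusted p = 0.12), the lowest of the family in Cog. Car8 (NM_007592), the inactive relative, read 9.95, 10.13 and 10.46 in Schmid and 10.65, 9.21 and 10.11 in its wildtype, with a log2 change of 0.19 (SE 0.33, adjusted p = 0.70). It was detected on none of the 6 Cog and Cog-background arrays.

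**Figure D5:**
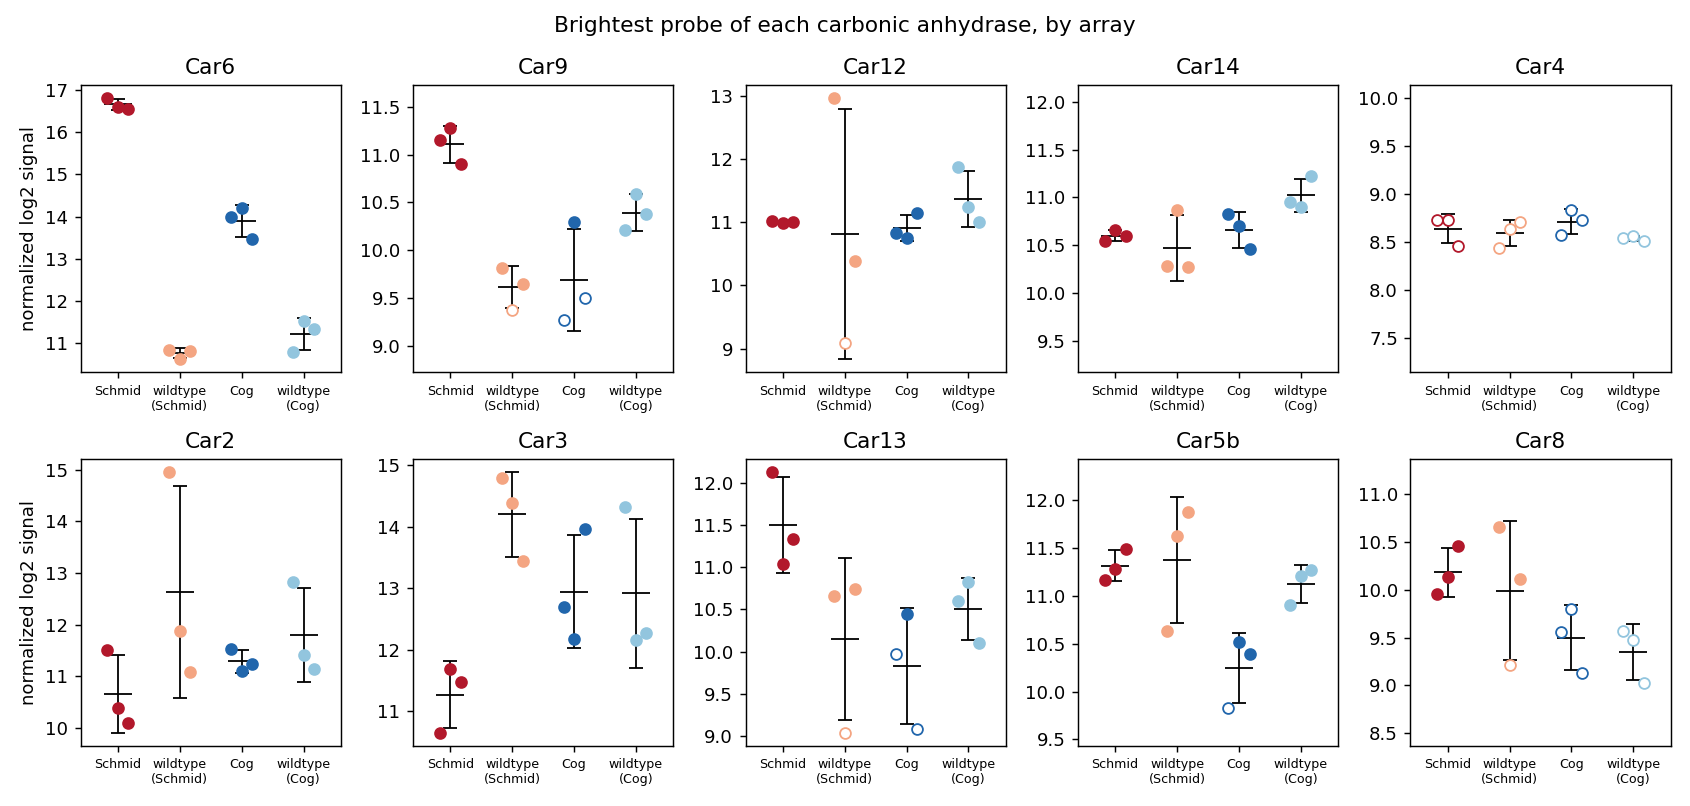
Normalized log2 signal (y axis, scaled per panel) of the main probe of each of the 10 genes on each array, by group, with the mean as a bar and the SD as whiskers, where open points were not well above background. Car6 separates all groups but the wildtypes, Car3 is low in Schmid, Car9 is high in Schmid, and Car4 is open throughout.

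The 6 further carbonic anhydrases on the array were Car1, Car5a, Car7, Car10, Car11 and Car15. Car1, an enzyme of red cells, was called lower in Schmid (log2 change -1.37, SE 0.35, limma, adjusted p = 0.020), a call that was lost without Schmid replicate 2, with the 2 groups compared alone and with treat. It was at 1.13 in Cog (SE 0.35, adjusted p = 0.10), a difference of -2.50 (SE 0.50, adjusted p = 0.0088). Car5a also passed the threshold in Schmid, but its probe was detected on no array of either group, so no fold change is given. Car7 fell by 0.69 on the log2 scale in Schmid at an adjusted p of 0.015, under the 2-fold limit. In Cog 0 of the 6 were called.

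Bicarbonate and proton carriers work with the carbonic anhydrases, and 20 of those listed were on the array. In Schmid 0 were called higher. Slc9a2, a sodium-proton exchanger, was called lower in Schmid, with a log2 change of -3.90 (SE 0.45, limma, adjusted p = 0.00041), and was detected on 1 of the 3 Schmid arrays. It was at -0.19 in Cog (SE 0.45, adjusted p = 0.85), a difference between the mutants of -3.72 (SE 0.63, adjusted p = 0.0042). In Cog the anion exchanger Slc26a4 was called higher, at 1.27 (SE 0.26, adjusted p = 0.025), and 0 were lower. The call of Slc26a4 was lost under 9 of 22 alternative settings, among them the omission of Cog replicate 1 or 2 or of wildtype replicate 2 or 3. The median log2 change of the list was -0.12 in Schmid and -0.04 in Cog, close to that of all probes.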

How the data were processed

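Hypertrophic zone RNA of 12 mice was read on single-colour Agilent 44K arrays, 1 per mouse. The deposited scanner tables hold spot intensities written by Agilent Feature Extraction 9.5.3, not normalized between arrays. The authors also deposited a table of log2 values, made by normexp correction (offset 50), quantile normalization and averaging of duplicate spots. Depth has no counterpart on arrays, and their number limits the precision.

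From the intensities (mean signal and local background), the same steps were repeated with limma 3.58.1 in R 4.3.3. Of 45018 spots, 43379 were no controls, and 99.8% of those were kept after removal of outlier spots. Averaging of duplicate spots then gave 41174 probes. The values correlated with the deposited log2 table at 0.99987 or more. One linear model with empirical Bayes moderation was fitted to all 4 groups (8 residual degrees of freedom), with p-values adjusted by Benjamini-Hochberg over all probes. The difference between mutants is the change in Schmid minus that in Cog. Scripts were tested on simulated data.

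All 10 genes are named, with the 5 nearest genes of Car6, Car3 and Car9, and lists are given by counts, medians and members named for a call or their role. The genes and lists were chosen with earlier results of these data known. One result of the carrier list is not reported here. Signal, scaling, background correction, filters, test, slide, replicate block, array position and left-out arrays were varied. Replicate numbers are shared between groups in the labels. Over the 12807 probes detected on all arrays, deviations of same-numbered Schmid and wildtype arrays correlated at 0.306, 0.283 and 0.117. A pairing by number was therefore taken as possible. The main fit held no block, and the numbers entered only the alternative settings with a replicate block. The pairing is uncertain, since the correlations were 0.193, 0.171 and 0.066 over all probes, 2 unmatched pairs reached 0.148 and 0.119, and the labels name no shared litter or day. Same-numbered Cog and wildtype arrays correlated at -0.209, 0.153 and -0.201, which gave no ground for a pairing. Figures were drawn with matplotlib 3.10.9.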

Additional observations from a re-analysis of the deposited data

Results flagged for a closer look

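The change of Car9 in Schmid minus that in Cog was 2.20 on the log2 scale (SE 0.34, limma, adjusted p = 0.0028), a difference between the mutants that passed the test. Car9 was above wildtype on 3 of 3 Schmid arrays, in a comparison where the groups did not overlap for 45.3% of all probes. The same difference for Car3 was -2.96 (SE 0.91, limma, adjusted p = 0.050), with 3 of 3 Schmid arrays below wildtype and overlapping values in Cog, and it was lost in 16 of 27 alternative settings.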

How the results depend on the processing

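The change of Car6 was 5.56 to 6.26 in Schmid and 2.45 to 2.89 in Cog over 22 alternative settings each. Over 15 changes of the other members, 301 of 330 alternative values kept direction and side of the threshold, 3 lost the call, 10 gained it and 16 turned direction. The call of Car9 in Schmid was lost only when tested against a 2-fold change (treat), and that of Car3 there and with the mean of all probes of a gene. The count of members called in Schmid, 2, was 4 with normexp values at a common 75th percentile, 4 with the replicate block within each background (Car2, -1.98, adjusted p = 0.039, and Car13, 1.35, adjusted p = 0.021, added), 1 with the mean of all probes and 0 with treat. It was 2 to 3 when single arrays were left out, and that in Cog 0 to 1. The cause was not tested.

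Direction turned only for changes that were not called. With normexp values at a common 75th percentile, the dimmer Car3 probe was at -0.43 and Car8 at -0.14 in Schmid, and Car3 at -0.06 in Cog. The dimmer Car3 probe was at -0.03 with the row trend removed and -0.02 with row and GC trends removed. With the mean of all probes, Car12 was at -0.17 in Schmid and Car3 at -0.17 in Cog. Car3 in Cog was at -0.05 with processed signals at a common 75th percentile and -0.07 with slide as a random block. Leaving out single arrays gave -0.12 to 0.34 for the dimmer Car3 probe, -0.43 to 0.19 for Car5b, -0.20 to 0.52 for Car8 and -0.67 to 1.27 for Car12 in Schmid, and -0.83 to 0.01 for Car2 and -0.48 to 0.73 for Car3 in Cog.

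Over all probes, 4310 were called in Schmid, 6872 with processed signals, 7008 with these at a common 75th percentile, 2782 with no background correction, 251 with treat, 9871 by adjusted p alone and 2827 without wildtype replicate 2. In Cog 952 were called, and 14 with treat to 2113 with array weights, with 303 to 1204 when single arrays were left out, fewest without wildtype replicate 2. For the difference between mutants 4224 were called, 2542 with no background correction, 212 with treat and 6819 by adjusted p alone. Car8 and Car9 in Cog were detected on 0 and 1 of 3 arrays.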
